A study of Mus musculus with 9 samples.

Results

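The claudins of the nephron are the 9 genes Cldn1, Cldn2, Cldn3, Cldn4, Cldn7, Cldn8, Cldn10, Cldn16 and Cldn19. They were taken by symbol, in GENCODE M21, from the 29678 genes of the count tables, and all 9 were among the 17967 genes with enough counts to be tested. Their mRNA was read from poly(A) RNA sequencing of mouse kidneys taken 24 h after blood flow was restored. Sham kidneys were operated without ischemia, bIRI kidneys had ischemia-reperfusion injury on both sides, and BHBNa_bIRI kidneys had this injury too but had first been given sodium beta-hydroxybutyrate, a ketone body. The series title places the study in ischemic acute kidney injury and its treatment with this ketone body. The labels name 3 libraries in each group. They state no strain, sex or age for any group, no dose or timing for the pretreatment, no vehicle in the Sham and bIRI groups, and no region of the kidney. No label says that the libraries came from separate mice, and a p-value here reflects only how far these libraries differ from each other, which may be technical.

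Claudins are membrane proteins whose strands close the gap between neighbouring epithelial cells. Some form barriers and others form pores that let selected ions or water pass between the cells, so each tubule segment carries its own set. In the kidney, Cldn2 forms the cation and water pore of the leaky proximal tubule. Cldn10 is made from alternative first exons as an anion-selective form of the proximal tubule and a cation-selective form of the thick ascending limb. Cldn16 and Cldn19 act together in the thick ascending limb, where calcium and magnesium are taken back between the cells. Cldn3, Cldn4, Cldn7 and Cldn8 belong to the tighter distal nephron and collecting duct, and Cldn1 to the parietal epithelium of Bowman's capsule.

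The 250 bases before the RefSeq start of the transcript are shown for 4 members, because Cldn4 and Cldn7 were higher and Cldn2 and Cldn10 lower in the bIRI group than in the Sham group. The sequences come from RefSeq on GRCm38.p6, in which 8 of 9 members had a promoter, with 11 windows in all. They run 5′ to 3′ on the strand of the gene, and capitals mark the letters of a motif found on either strand. Cldn4 is at chr5:134946935-134947184 on the minus strand. The upstream start of Cldn7 is at chr11:69964529-69964778, Cldn2 at chrX:139800558-139800807, and the start sites of Cldn10 at chr14:118787621-118787870 and chr14:118854700-118854949, all on the plus strand.
Cldn4: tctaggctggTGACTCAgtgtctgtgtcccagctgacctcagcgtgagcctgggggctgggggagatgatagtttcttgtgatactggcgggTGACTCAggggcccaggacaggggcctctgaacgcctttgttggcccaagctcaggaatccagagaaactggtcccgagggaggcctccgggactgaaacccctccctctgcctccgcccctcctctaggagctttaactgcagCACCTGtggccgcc
Cldn7, upstream start: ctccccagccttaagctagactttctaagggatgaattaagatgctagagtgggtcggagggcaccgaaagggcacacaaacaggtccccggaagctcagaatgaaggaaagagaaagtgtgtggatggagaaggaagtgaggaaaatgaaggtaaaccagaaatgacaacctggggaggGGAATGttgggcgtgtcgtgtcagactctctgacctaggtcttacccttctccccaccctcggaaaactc
Cldn2: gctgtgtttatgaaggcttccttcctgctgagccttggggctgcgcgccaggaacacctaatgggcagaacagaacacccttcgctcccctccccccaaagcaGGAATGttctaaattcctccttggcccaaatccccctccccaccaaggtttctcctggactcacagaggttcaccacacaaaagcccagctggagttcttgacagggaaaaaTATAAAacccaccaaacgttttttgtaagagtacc
Cldn10, upstream start: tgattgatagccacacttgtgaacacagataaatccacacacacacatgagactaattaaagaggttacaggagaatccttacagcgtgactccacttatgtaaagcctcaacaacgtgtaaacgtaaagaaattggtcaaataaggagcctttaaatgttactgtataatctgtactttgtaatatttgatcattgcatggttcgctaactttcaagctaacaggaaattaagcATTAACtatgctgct
Cldn10, downstream start: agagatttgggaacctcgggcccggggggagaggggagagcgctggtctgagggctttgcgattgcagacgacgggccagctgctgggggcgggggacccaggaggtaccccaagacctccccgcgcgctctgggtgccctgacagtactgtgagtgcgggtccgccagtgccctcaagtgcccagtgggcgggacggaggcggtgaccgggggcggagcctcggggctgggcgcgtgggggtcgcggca

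The Cldn4 window held the AP-1 motif TGANTCA at 240 and 158 bases before the start, and the E-box CAGGTG, on the other strand, at 14 bases. Over 32851 promoter windows of the same length, 6.75% held the AP-1 motif and 17.2% the E-box. The Cldn2 window held the TATA motif TATAAA at 35 bases, which 12.4% of all windows held, and the TEAD motif GGAATG at 147 bases, which 12.6% held. The TEAD motif also stood at 70 bases in the upstream Cldn7 window. A downstream start of Cldn7, with a window at chr11:69965171-69965420 that is not shown, had the E-box at 97 and 57 bases. Among the other windows, that of Cldn1 held the HNF1 core GTTAAT at 241 bases and that of Cldn16 the TEAD motif at 237 bases. The upstream Cldn10 window held GTTAAT, the core of an HNF1 site, on the other strand at 15 bases, against 6.43% of all windows, and the downstream window held none of the motifs searched. The grainyhead motif AACNGGTT, present in 1.79% of all windows, was in no member's window. The motifs were chosen after the values were known, some of them share letters, and a match describes letters in a window and not a bound factor.

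Total counts ran from 33477985 to 45909063 per library, so that 3 counts corresponded to 0.0646 to 0.0815 CPM (counts scaled to library size, with TMM factors). The deposited table of bIRI replicate 2 held no counts of its own, being the rounded-down average of the other bIRI tables for each gene, and the values below rest on the 8 other libraries. A fit without bIRI replicate 1 or bIRI replicate 3 leaves 1 bIRI library, which is then assumed to vary like the other groups. The bIRI libraries also differed from each other in the marker genes of several segments. The summed CPM of 7 markers of the thick ascending limb was 1543 in the first bIRI library (replicate 1) and 4509 in the other (replicate 3), that of 10 markers of collecting duct principal cells 643 and 1515, and that of 8 urothelial markers 43.6 and 257. In the Sham libraries these sums were 2649 to 4653, 763 to 956 and 16.3 to 25.6. Every listed segment marker had counts in at least 1 library, and the markers of each listed kidney cell type were present, as the label kidney implies. The part of these differences in the results was not tested.

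After ischemia, Cldn2 and Cldn10, the most abundant claudins of Sham kidneys, fell, while Cldn4 and Cldn7 of the distal nephron and collecting duct rose. Of the same segments, Cldn8 was not called, and Cldn3 was called against Sham in the BHBNa_bIRI group only, as higher. In the bIRI group against the Sham group, Cldn4 and Cldn7 rose and Cldn2 and Cldn10 fell, and 5 of 9 members did not pass the test (edgeR quasi-likelihood test, Benjamini-Hochberg adjusted p under 0.05 over all genes tested). In the same comparison 35.1% of all genes passed, 18.9% as higher and 16.2% as lower. In the BHBNa_bIRI group against the Sham group, 4 members rose (Cldn1, Cldn3, Cldn4, Cldn7), 2 fell (Cldn2, Cldn10) and 3 did not pass, where 43.6% of all genes passed, 21.3% as higher and 22.2% as lower. In the BHBNa_bIRI group against the bIRI group, 1 member rose (Cldn7) and none fell, where 13.5% of all genes passed, 4.88% as higher and 8.65% as lower. Calls between the injured groups depended on the fit: over all genes 1 passed with only those groups fitted, 2 with each library's length and GC trends removed, 0 without Sham replicate 1, Sham replicate 2 or BHBNa_bIRI replicate 1, and 1 without BHBNa_bIRI replicate 3. Each gene whose call between the injured groups is printed below lost it under all of these settings. By unadjusted edgeR p, 5, 7 and 4 of 9 members were under 0.05 in these comparisons. Over the 17967 genes tested, 8226, 9364 and 6191 were. The comparisons share libraries with each other and are not independent.

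The libraries of bIRI and Sham did not overlap for 5 of 9 members, 2 above and 3 below, against 55.9% of all genes tested. Those of BHBNa_bIRI and Sham did not overlap for 7 members, 4 above and 3 below, against 64.8% of all genes, and those of BHBNa_bIRI and bIRI for 4 members, 3 above and 1 below, against 46.0%. The median log2 fold change of the 9 members was 0.63, -0.35 and 0.03 in the same order, and that of all genes tested was 0.09, 0.04 and -0.05. The shares of members called were thus 4, 6 and 1 of 9 beside these backgrounds, and nothing is read from them about claudins as a family. The shares of all genes that passed, 35.1%, 43.6% and 13.5% in the same order, also stand beside the counts of every gene list below. In bulk RNA, fewer cells of a segment and less mRNA per cell cannot be told apart.

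**Figure D1:**
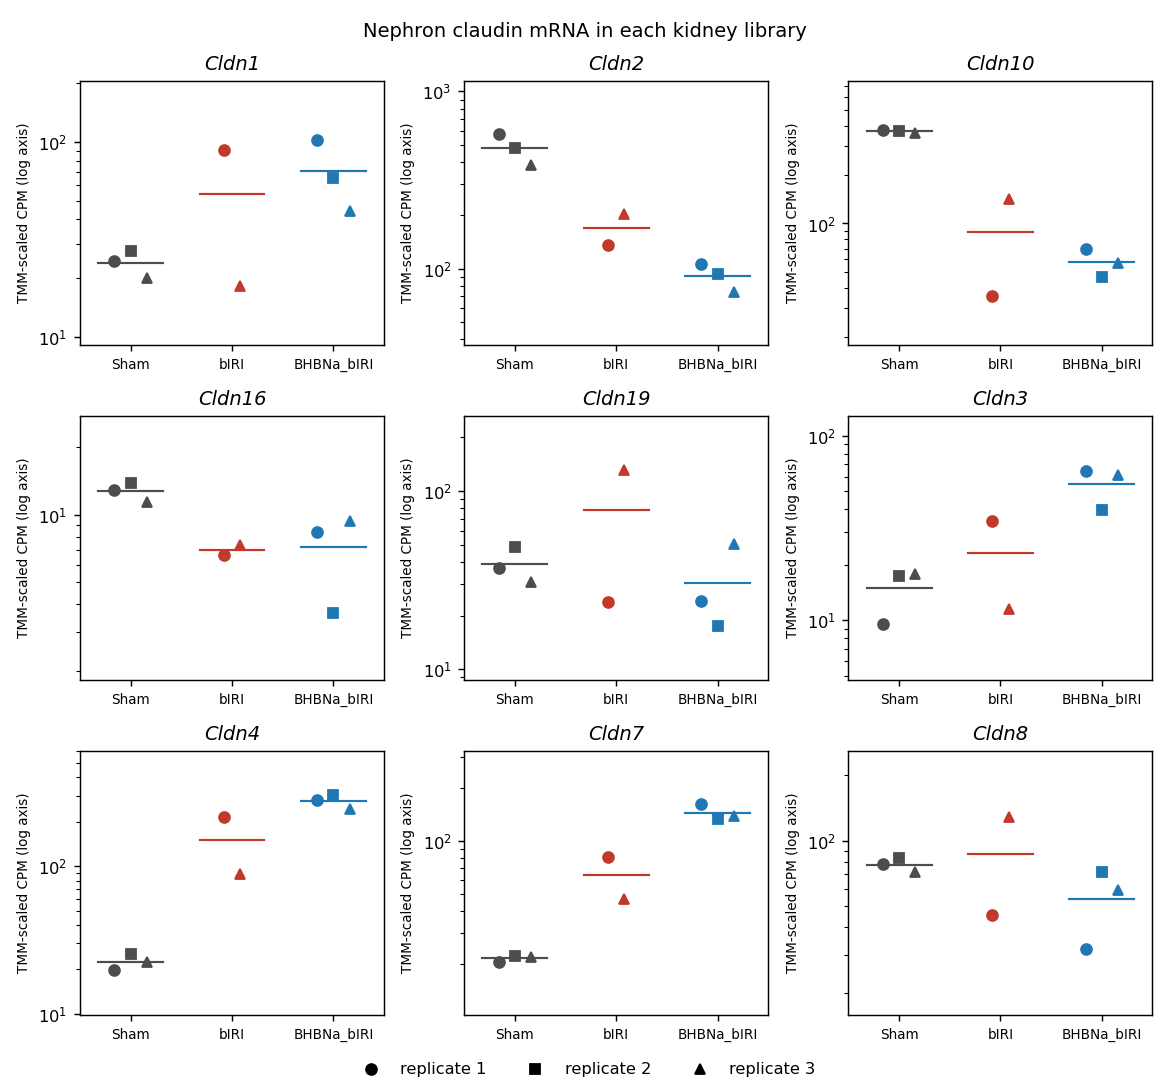
Level of each claudin in each library, in TMM-scaled CPM on a log axis, with the group mean as a line and the marker shape giving the replicate number. Cldn4 and Cldn7 were above the Sham range in all 5 injured libraries and Cldn2 and Cldn10 below it, while the bIRI libraries lay 2.84-fold to 5.57-fold apart for Cldn1, Cldn3, Cldn8, Cldn10 and Cldn19.

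Cldn2, the proximal tubule pore, was the most abundant of the 9 claudins in Sham kidneys, together with Cldn10, and its level fell after injury. It was measured at 572, 482 and 383 CPM in the Sham libraries, at 135 and 205 CPM in the bIRI libraries and at 107, 93.3 and 74.0 CPM in the BHBNa_bIRI libraries. No pair of groups overlapped, and the BHBNa_bIRI libraries were the lowest. Cldn2 was 2.82-fold lower in bIRI than in Sham (log2 fold change -1.496, SE 0.28, edgeR adjusted p = 0.0034) and 5.25-fold lower in BHBNa_bIRI than in Sham (-2.39, SE 0.25, adjusted p = 0.000113). Between BHBNa_bIRI and bIRI its log2 fold change of -0.90 (SE 0.26) had an edgeR adjusted p of 0.0501 and was not called. It passed with DESeq2 (adjusted p = 0.0122). It also passed with all 9 tables (edgeR adjusted p = 0.0156), where the averaged table adds no spread of its own. Against Sham, markers of the proximal tubule moved with Cldn2: all 13 fell in bIRI and in BHBNa_bIRI. Their summed CPM was 21279 to 22555 in Sham, 3183 to 4033 in bIRI and 3878 to 4003 in BHBNa_bIRI. Between the injured groups their median log2 fold change was 0.18, where that of Cldn2 was -0.90, and 1 of the 13 was called, as lower. Lrp2, the endocytic receptor megalin, was 7.99-fold lower in bIRI (edgeR adjusted p = 0.000133) and 13.1-fold lower in BHBNa_bIRI (adjusted p = 1.57e-05) than in Sham. The part of the marker loss in the fall of Cldn2 was not tested.

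Cldn10 was the other abundant claudin of Sham kidneys and had the lowest log2 fold change of the 9 against Sham in both injured groups. Its level was 377, 373 and 361 CPM in Sham, 35.6 and 141 CPM in bIRI, and 69.9, 46.5 and 57.0 CPM in BHBNa_bIRI. All injured libraries lay below the Sham range, and the BHBNa_bIRI libraries lay between the bIRI libraries. Cldn10 was 4.20-fold lower in bIRI than in Sham (log2 fold change -2.07, SE 0.48, edgeR adjusted p = 0.00977) and 6.41-fold lower in BHBNa_bIRI than in Sham (-2.68, SE 0.42, adjusted p = 0.00105). The bIRI value depended on which bIRI library was used, being -1.47 without bIRI replicate 1 and -3.38 without bIRI replicate 3, both past the threshold. The difference between BHBNa_bIRI and bIRI was -0.61 (SE 0.44, edgeR adjusted p = 0.354). Counts were summed per gene, so the proximal form and the thick ascending limb form, which start at the different sites shown above, cannot be told apart here.

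In the thick ascending limb, the calcium and magnesium claudins Cldn16 and Cldn19 were not called in any of the 3 comparisons with 8 libraries. Cldn16 was measured at 13.0, 13.8 and 11.4 CPM in Sham, 6.59 and 7.37 CPM in bIRI and 8.39, 3.66 and 9.40 CPM in BHBNa_bIRI. Every injured library lay below every Sham library, and the injured groups overlapped. The log2 fold change of Cldn16 was -0.87 in bIRI against Sham (SE 0.36, edgeR adjusted p = 0.0880), -0.84 in BHBNa_bIRI against Sham (SE 0.32, adjusted p = 0.0568) and 0.03 between the injured groups (SE 0.35, adjusted p = 0.958). Cldn16 passed against Sham with DESeq2 in BHBNa_bIRI (adjusted p = 0.0324). With only the compared groups fitted it passed in bIRI (edgeR adjusted p = 0.0348) and in BHBNa_bIRI (0.0326). It also passed with all 9 tables in bIRI (edgeR adjusted p = 0.0307) and in BHBNa_bIRI (0.0386), where the averaged table adds no spread of its own.

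Cldn19 was measured at 37.0, 48.4 and 31.0 CPM in Sham, 23.7 and 132 CPM in bIRI and 24.0, 17.4 and 50.2 CPM in BHBNa_bIRI. The bIRI libraries differed 5.57-fold, with 1 below and 1 above the Sham range, and all groups overlapped. Its log2 fold change was 1.00 in bIRI against Sham (SE 0.61, edgeR adjusted p = 0.233), -0.71 without bIRI replicate 3 and 1.69 without bIRI replicate 1. In BHBNa_bIRI against bIRI it was -1.35 (SE 0.62, edgeR adjusted p = 0.152), 0.36 without bIRI replicate 3 and -2.06 without bIRI replicate 1. The per-length ratio of Cldn19 to Cldn16 was 0.786, 0.964 and 0.746 in Sham, 0.990 and 4.92 in bIRI, and 0.788, 1.31 and 1.47 in BHBNa_bIRI, so bIRI replicate 3 lay far above the other libraries in that ratio. The exons of Cldn19 overlap Gm12927 on the other strand, and those of Cldn3 overlap Wbscr25. The strand setting of the counting was not given in the sources used here, and reads from such partners cannot be told apart.

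Other genes of the thick ascending limb split the bIRI libraries in the same way as Cldn19. Slc12a1, the sodium, potassium and chloride cotransporter that drives transport there, was at 503, 542 and 272 CPM in Sham, 33.1 and 1114 CPM in bIRI, and 25.3, 17.8 and 21.3 CPM in BHBNa_bIRI. Umod, the uromodulin secreted by this segment, was at 2394, 2614 and 1417 CPM in Sham, 1412 and 2865 CPM in bIRI, and 765, 219 and 641 CPM in BHBNa_bIRI. Casr, the calcium-sensing receptor that restrains calcium reabsorption in this segment, was at 39.8, 29.3 and 14.9 CPM in Sham, 3.22 and 34.7 CPM in bIRI, and 3.24, 2.20 and 2.93 CPM in BHBNa_bIRI. Among the injured libraries, bIRI replicate 3 was above the Sham range for Slc12a1 and Umod and within it for Casr, and the other 4 were below it for all 3 genes. Of 7 markers of the segment, 1 fell in bIRI against Sham (Egf), 6 fell in BHBNa_bIRI against Sham and 6 fell in BHBNa_bIRI against bIRI (1 without bIRI replicate 3). Their summed CPM was 286 to 855 in BHBNa_bIRI. The part of this marker loss in the levels of Cldn10, Cldn16 and Cldn19 was not tested.

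Cldn4, a claudin of the collecting duct that pairs with Cldn8 in its chloride pathway, had the highest log2 fold change of the 9 against Sham in both injured groups. Its level was 19.7, 25.6 and 22.6 CPM in Sham, 214 and 88.4 CPM in bIRI, and 280.0, 302 and 245 CPM in BHBNa_bIRI. The groups were fully separated, with BHBNa_bIRI highest. Cldn4 was 6.69-fold higher in bIRI than in Sham (log2 fold change 2.74, SE 0.32, edgeR adjusted p = 0.000363) and 12.2-fold higher in BHBNa_bIRI than in Sham (3.61, SE 0.32, adjusted p = 4.84e-05). Without bIRI replicate 1 the bIRI value was 1.90, still past the threshold. Between the injured groups the log2 fold change of 0.87 (SE 0.33) had an edgeR adjusted p of 0.0985 and was not called, although it passed with DESeq2 (adjusted p = 0.0430).

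Cldn7, a distal nephron claudin whose loss in mice causes renal salt wasting, was called in all 3 comparisons, and no other member was. Its level was 20.4, 22.1 and 21.9 CPM in Sham, 81.3 and 46.5 CPM in bIRI, and 164, 133 and 139 CPM in BHBNa_bIRI. Here too the groups did not overlap, and the Sham libraries lay within 1.08-fold of each other. Cldn7 was 2.98-fold higher in bIRI than in Sham (log2 fold change 1.57, SE 0.23, edgeR adjusted p = 0.00102), 6.76-fold higher in BHBNa_bIRI than in Sham (2.76, SE 0.22, adjusted p = 3.18e-05) and 2.27-fold higher in BHBNa_bIRI than in bIRI (1.18, SE 0.24, adjusted p = 0.0288). Without bIRI replicate 1 the log2 fold change in bIRI against Sham was 1.04, still past the threshold. The call between the injured groups was lost with only those groups in the fit (edgeR adjusted p = 0.108) and without Sham replicate 1 (0.0548), Sham replicate 2 (0.0608), BHBNa_bIRI replicate 1 (0.105) or BHBNa_bIRI replicate 3 (0.115), with log2 fold changes from 1.09 to 1.22. With each library's length and GC trends removed it was 0.52 (edgeR adjusted p = 0.104).

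Cldn3, a barrier claudin of the distal tubule, was at 9.49, 17.4 and 17.9 CPM in Sham, 34.7 and 11.6 CPM in bIRI, and 64.1, 39.4 and 61.3 CPM in BHBNa_bIRI. The BHBNa_bIRI libraries lay above all others, and the bIRI libraries lay on both sides of the highest Sham values. Cldn3 was 3.68-fold higher in BHBNa_bIRI than in Sham (log2 fold change 1.88, SE 0.40, edgeR adjusted p = 0.00503). It was not called in bIRI against Sham (0.63, SE 0.43, edgeR adjusted p = 0.285) or in BHBNa_bIRI against bIRI (1.25, SE 0.45, adjusted p = 0.0887). Without bIRI replicate 1 its log2 fold change in bIRI against Sham was -0.43, and without bIRI replicate 3 it was 1.22.

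Cldn8, the partner that brings Cldn4 to the junction of the collecting duct, was not called in any comparison. Its level was 78.3, 82.9 and 71.4 CPM in Sham, 45.4 and 129 CPM in bIRI, and 31.8, 71.6 and 59.2 CPM in BHBNa_bIRI. All groups overlapped, and the bIRI libraries lay on opposite sides of the Sham range. The log2 fold change of Cldn8 was 0.17 in bIRI against Sham (95% interval -0.77 to 1.11), -0.52 in BHBNa_bIRI against Sham (-1.36 to 0.33) and -0.68 in BHBNa_bIRI against bIRI (-1.62 to 0.25), with edgeR adjusted p of 0.788, 0.293 and 0.271. Of 9 tested markers of principal cells, 4 rose and 1 fell in bIRI against Sham, and 4 rose and 3 fell in BHBNa_bIRI against Sham. The summed CPM of all 10 listed markers was 1118 to 1139 in BHBNa_bIRI. Aqp2, the vasopressin-regulated water channel, was at 203, 339 and 265 CPM in Sham, 291 and 612 CPM in bIRI and 547, 502 and 608 CPM in BHBNa_bIRI. The part of these marker levels in the 4 distal claudins was not tested.

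Cldn4 and Cldn7 are also made by urothelium, the lining of the renal pelvis. Of 8 urothelial markers, 5 rose in bIRI against Sham, and 6 rose in BHBNa_bIRI against Sham, with summed CPM of 84.4 to 204 in BHBNa_bIRI. Upk1b, a plaque protein of urothelium, was at 2.63, 2.51 and 3.33 CPM in Sham, 6.30 and 27.5 CPM in bIRI, and 7.58, 38.3 and 9.51 CPM in BHBNa_bIRI, and all 5 injured libraries were above the Sham range. Upk3a, another plaque protein, was at 2.44 to 3.15 CPM in Sham, 0.591 and 15.9 CPM in bIRI and 7.82 to 15.1 CPM in BHBNa_bIRI, so that bIRI replicate 1 was below the Sham range and the other 4 injured libraries above it. Of the bIRI libraries, replicate 3 had the higher urothelial sum and replicate 1 the higher levels of Cldn4 and Cldn7. Among 14 markers of injured tubule cells, 13 rose in bIRI and 14 in BHBNa_bIRI against Sham, and Krt20, a keratin of urothelium that injured tubules also make, had 719 CPM in replicate 1 of bIRI but 41.9 CPM in replicate 3. The part of these cells in the rise of Cldn4 and Cldn7 was not tested.

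Cldn1, the barrier claudin of the parietal epithelium, lay far apart in the bIRI libraries. Its level was 24.6, 27.6 and 19.9 CPM in Sham, 90.5 and 18.1 CPM in bIRI, and 103, 65.5 and 44.0 CPM in BHBNa_bIRI. The BHBNa_bIRI libraries were above all Sham libraries, and bIRI replicate 3 was below them. Cldn1 was 2.94-fold higher in BHBNa_bIRI than in Sham (log2 fold change 1.56, SE 0.51, edgeR adjusted p = 0.0327). That call was lost without BHBNa_bIRI replicate 1 (edgeR adjusted p = 0.121), BHBNa_bIRI replicate 2 (0.0650) or any of Sham replicates 1, 2 and 3 (0.0914, 0.0708 and 0.104), and with no filter on low counts (0.185). In bIRI against Sham the log2 fold change was 1.18 (SE 0.55, edgeR adjusted p = 0.123), and it was -0.48 without bIRI replicate 1 and 1.91 without bIRI replicate 3. Among the parietal markers, the adhesion molecule Ncam1 rose and Dkk3 fell in BHBNa_bIRI against Sham, so they gave no single direction beside Cldn1. The call of Dkk3 was lost without Sham replicate 2 (edgeR adjusted p = 0.0644) or BHBNa_bIRI replicate 1 (0.0523).

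**Figure D2:**
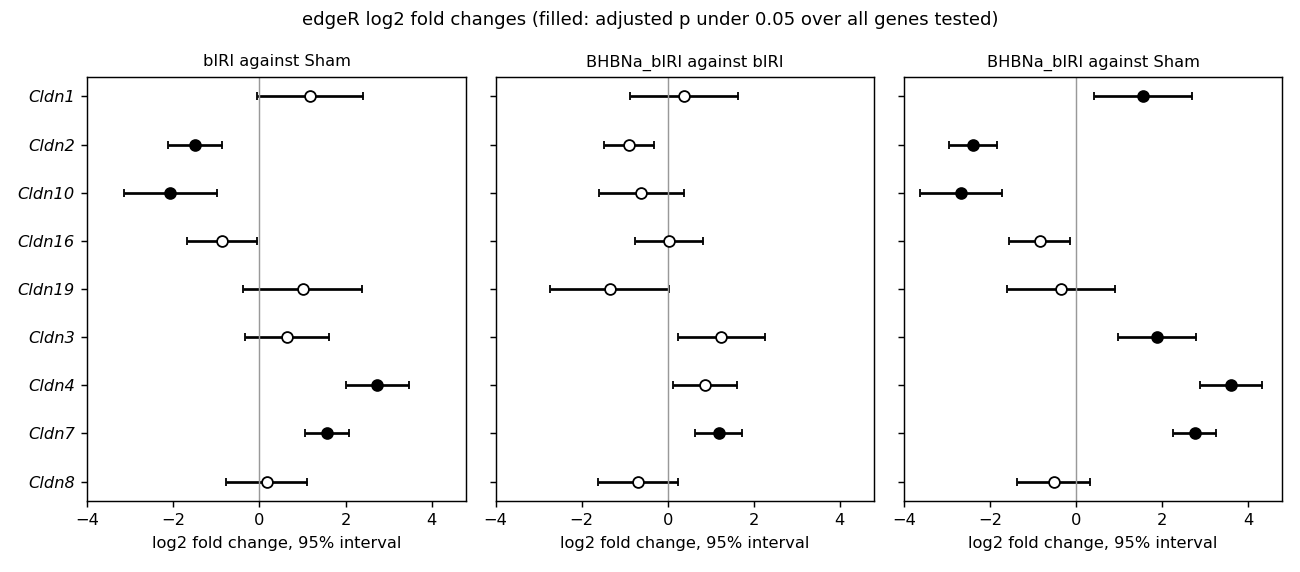
edgeR log2 fold change of each claudin with its 95% interval in the 3 comparisons, filled where the adjusted p was under 0.05 over all genes tested. Cldn4 and Cldn7 lie right of 0 and Cldn2 and Cldn10 left of 0 against Sham in both injured groups, and only Cldn7 (1.18) is filled between the injured groups.

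Set on a common scale per kb of exon, the claudin mRNA of the kidney changed its order. In Sham kidneys Cldn2 (144 ± 28.5 CPM per kb, SD, n = 3) and Cldn10 (143 ± 3.16) overlapped at the top, and Cldn8 (32.9 ± 2.44) lay apart from both neighbours. Below it came Cldn4 (12.5), Cldn3 (11.8), Cldn7 (11.03), Cldn16 (10.9) and Cldn19 (9.11), each overlapping the next, and then Cldn1 (4.96), which lay apart. In bIRI the order of means was Cldn4, Cldn2, Cldn8, Cldn10, Cldn7, Cldn3, Cldn19, Cldn1 and Cldn16, and the 2 libraries overlapped at every step. In BHBNa_bIRI Cldn4 (152 ± 15.98 CPM per kb, SD, n = 3) lay above Cldn7 (74.6 ± 8.35), and Cldn7 above Cldn3 (43.6 ± 10.7), with no overlap. Cldn2 (27.5), Cldn8 (23.0), Cldn10 (22.3), Cldn1 (14.6), Cldn19 (7.16) and Cldn16 (6.10) followed, each overlapping its neighbour.

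As a share of the summed CPM per kb of the 9 genes, Cldn2 and Cldn10 together made up 78.5%, 73.7% and 74.0% in the Sham libraries. They made up 18.7% and 39.5% in bIRI and 14.9%, 12.7% and 12.5% in BHBNa_bIRI, and the 3 groups did not overlap. Cldn3, Cldn4, Cldn7 and Cldn8 together made up 15.4%, 19.0% and 19.8% in Sham, 71.0% and 46.5% in bIRI, and 76.5%, 81.6% and 79.3% in BHBNa_bIRI. The share of Cldn8 alone was 8.22% to 8.97% in Sham, 6.62% and 18.7% in bIRI, and 3.41% to 8.37% in BHBNa_bIRI, so it overlapped Sham in both injured groups. Cldn4 alone was 2.68% to 3.61% in Sham, 40.6% and 16.6% in bIRI, and 38.2% to 45.8% in BHBNa_bIRI. The per-kb ratio of Cldn4 to Cldn2 was 0.0630, 0.0971 and 0.108 in Sham, 2.90 and 0.791 in bIRI, and 4.81, 5.93 and 6.05 in BHBNa_bIRI. The ratio is taken within a library and does not depend on its scaling, and it shows unequal change of the pair. The shares are of mRNA in whole tissue and say nothing of the make-up of any single junction. The summed CPM of the 9 genes was 940.0 to 1152 in Sham, 667 to 778 in bIRI and 739 to 851 in BHBNa_bIRI.

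**Figure D3:**
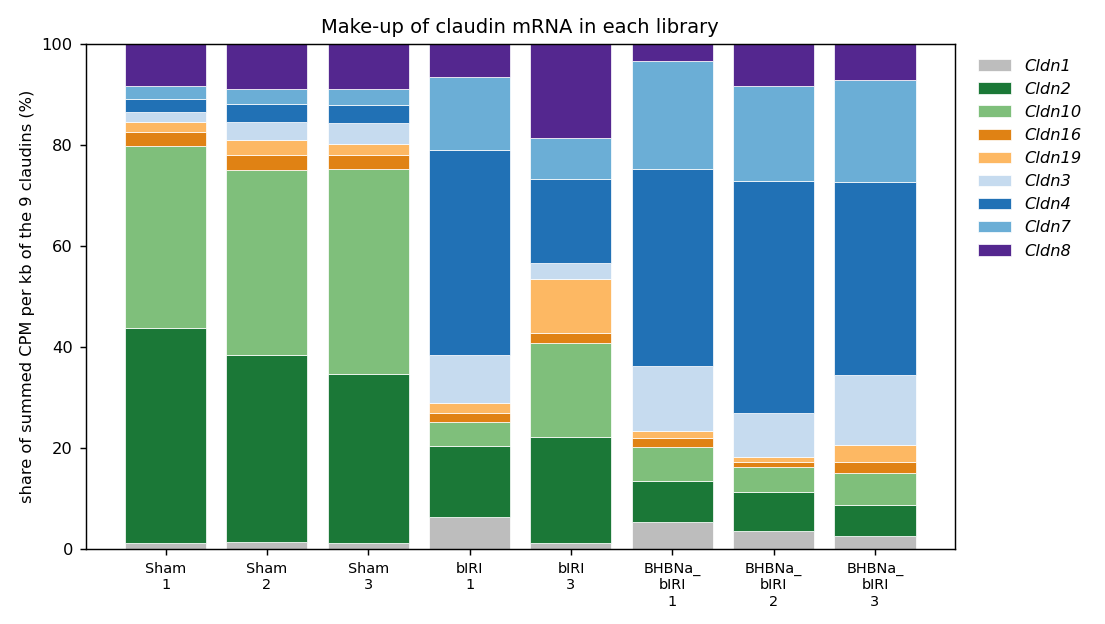
Share of each claudin in the summed CPM per kb of the 9 genes, in percent, 1 bar per library. The green Cldn2 and Cldn10 blocks take 73.7% to 78.5% of the Sham bars and 12.5% to 39.5% of the injured bars, and the blue Cldn3, Cldn4 and Cldn7 blocks and the purple Cldn8 block together take 46.5% to 81.6% of the injured bars.

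Each claudin was set beside the markers of a segment it belongs to. Their median log2(CPM + 0.5) was subtracted from the log2(CPM + 0.5) of the claudin in each library. For Cldn2 the mean difference from the proximal tubule markers was -1.25 in Sham and -1.30 in BHBNa_bIRI (-0.05 between the groups), with overlapping libraries (exact two-sided permutation p = 0.8). In bIRI it was -0.34, which is 0.91 above Sham (0.56 without bIRI replicate 3), with every bIRI library above every Sham library. For Cldn10 against the thick ascending limb markers it was 1.23 in Sham, 0.38 in bIRI and 2.31 in BHBNa_bIRI. The counts of Cldn10 do not separate its proximal tubule form, which these markers do not cover. Relative to the same markers, every BHBNa_bIRI library was above every other library for Cldn10, Cldn16 and Cldn19, by a mean of 1.07, 2.88 and 3.30 against Sham. In bIRI, Cldn19 was 2.08 above Sham, without overlap. The summed CPM of these markers was 2649 to 4653 in Sham and 286 to 855 in BHBNa_bIRI. Cldn10 itself was 6.41-fold lower in BHBNa_bIRI than in Sham, and Cldn16 and Cldn19 were not called. The part of the marker levels in these differences was not tested.

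Against the principal cell markers, Cldn4 was above its Sham mean by 2.15 in bIRI and 3.47 in BHBNa_bIRI, and Cldn7 by 1.06 and 2.61, with no overlap with Sham. The bIRI values rested on libraries far apart, being 1.21 for Cldn4 and 0.36 for Cldn7 without bIRI replicate 1, and 3.08 and 1.76 without bIRI replicate 3. Cldn3 differed by 0.03 in bIRI, with overlap, and by 1.75 in BHBNa_bIRI, without overlap. Cldn8 differed by -0.45 in bIRI, with overlap, and by -0.70 in BHBNa_bIRI, without overlap, so it alone of the 4 was lower relative to these markers in BHBNa_bIRI than in Sham. Cldn1 differed from the parietal markers by 1.10 in bIRI (0.034 without bIRI replicate 1), with overlap, and by 2.02 in BHBNa_bIRI, without overlap. In this family of 27 exact two-sided permutation tests the smallest p possible was 0.1 and the smallest adjusted p 0.15, so none could reach 0.05.

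**Figure D4:**
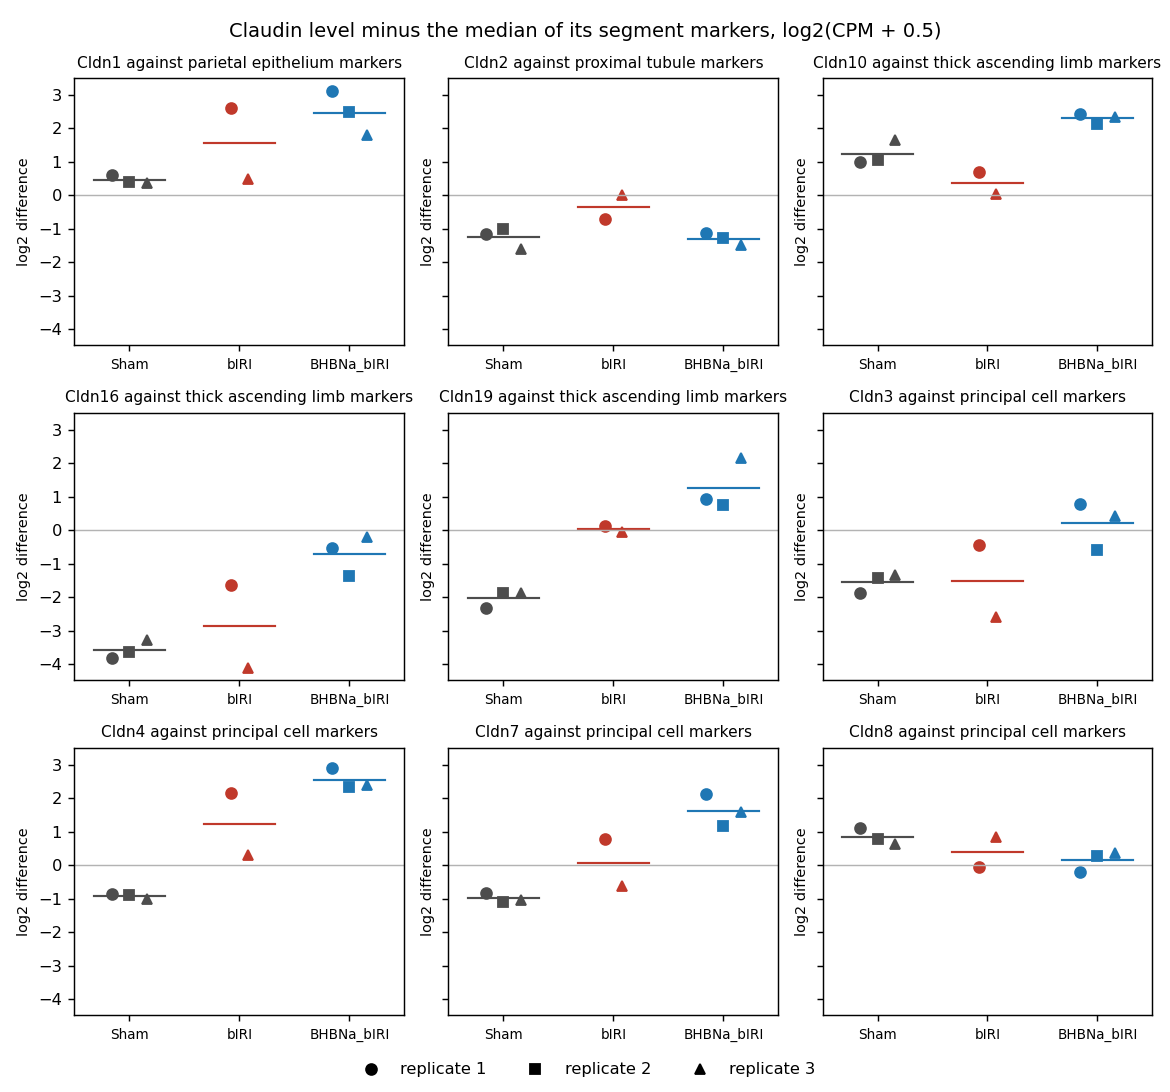
log2(CPM + 0.5) of each claudin minus the median of the markers of the segment it was set beside, per library, with the group mean as a line. The BHBNa_bIRI mean lies above the Sham mean by 3.47 for Cldn4, 2.61 for Cldn7 and 3.30 for Cldn19, and the BHBNa_bIRI and Sham libraries of Cldn2 overlap.

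The comparison of BHBNa_bIRI with bIRI rested on a pair of bIRI libraries that differed from each other, and its count of called claudins moved with the setting. It was 1 of 9 in the fit of 8 libraries, 4 with DESeq2 (Cldn3, Cldn4 and Cldn7 higher, Cldn2 lower), 0 with only the compared groups in the fit and 0 with length and GC trends taken out. Over all genes, DESeq2 called 25.1%, the fit of the compared groups 1 gene and the length and GC fit 2 genes. Without bIRI replicate 1, 8 of 9 members were called, 4 in each direction, beside 42.8% of all genes. Without bIRI replicate 3, the direction was the opposite for Cldn1 (-0.36), Cldn8 (0.25), Cldn10 (0.69) and Cldn19 (0.36), none of them called, and 4.27% of all genes passed. In both of these fits the lone bIRI library is assumed to vary like the other groups. Cldn2, Cldn3, Cldn4 and Cldn7 kept their direction with either bIRI library left out, with log2 fold changes from -1.11 to -0.57, 0.66 to 2.30, 0.36 to 1.70 and 0.83 to 1.70.

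**Figure D5:**
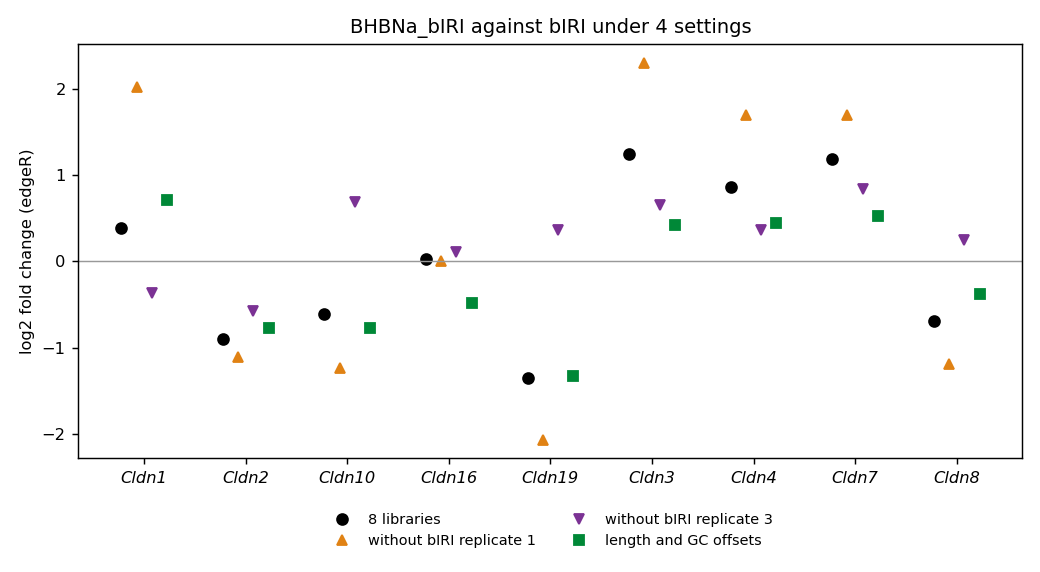
edgeR log2 fold change of each claudin in BHBNa_bIRI against bIRI with 8 libraries, without bIRI replicate 1, without bIRI replicate 3, and with length and GC trends taken out. Cldn2 lies below 0 and Cldn3, Cldn4 and Cldn7 above 0 under all 4 settings, while Cldn1, Cldn8, Cldn10 and Cldn19 change sign without bIRI replicate 3 and Cldn16 with the length and GC trends taken out.

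Of 16 other claudin genes in the tables, 9 were tested. In bIRI against Sham 4 rose and 2 fell, in BHBNa_bIRI against Sham 5 rose and 2 fell, and in BHBNa_bIRI against bIRI 1 rose. Over all genes 35.1%, 43.6% and 13.5% passed in these comparisons. Cldn14, which blocks the Cldn16 and Cldn19 cation pathway and is induced through Casr, had counts of 5, 2 and 0 in Sham, 323 and 34 in bIRI, and 431, 182 and 230 in BHBNa_bIRI. In CPM this was at most 0.124 in Sham, 7.07 and 0.742 in bIRI, and 10.05, 3.92 and 6.25 in BHBNa_bIRI, with no overlap between Sham and either injured group (edgeR adjusted p = 0.00274 and 0.000905). With so few Sham counts its fold is not given. Cldn5, the claudin of blood vessels, was the riser between the injured groups, at 25.1 and 14.4 CPM in bIRI and 62.2, 58.7 and 82.5 CPM in BHBNa_bIRI (log2 fold change 1.78, SE 0.34, edgeR adjusted p = 0.0275). Its call was lost under 9 of 19 alternatives, among them length and GC trends removed (1.03, edgeR adjusted p = 0.0520) and bIRI replicate 3 left out (1.43, 0.0509).

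Cldn12 fell against Sham in both injured groups, by 0.82 and 1.21 on the log2 scale (edgeR adjusted p = 0.0249 and 0.00174). The bIRI call of Cldn12 was lost with only the compared groups fitted (edgeR adjusted p = 0.0669) and without Sham replicate 1 (0.0795), Sham replicate 2 (0.0793) or bIRI replicate 3 (0.0797). Cldn15, a pore-forming claudin of the intestine, rose by 1.04 in bIRI and 1.06 in BHBNa_bIRI (edgeR adjusted p = 0.0137 and 0.00677), the bIRI call being lost without Sham replicate 1 (0.0539). Cldn23 rose by 1.67 in bIRI and 2.95 in BHBNa_bIRI against Sham, from at most 0.388 CPM in Sham (edgeR adjusted p = 0.021 and 0.000721). The bIRI call of Cldn23 was lost with only the compared groups fitted (edgeR adjusted p = 0.0562) and without Sham replicate 1 (0.0655), Sham replicate 2 (0.0819) or bIRI replicate 1 (0.0641). Cldn11 also passed the test against Sham in both groups, but its levels ran from 0.963 to 17.4 CPM in bIRI and from 0.140 to 29.8 CPM in BHBNa_bIRI. Its calls were lost under 7 and 8 of 19 alternatives, without any of the Sham or bIRI libraries among them.

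Claudins are held at the junction by scaffold and membrane partners. Of 25 such partners, 9 rose and 1 fell in bIRI against Sham, with a median log2 fold change of 0.38 beside 0.09 over all genes. In that comparison 35.1% of all genes passed, 18.9% as higher and 16.2% as lower. Tjp1, the scaffold ZO-1 that binds the tail of claudins, was at 37.8, 37.7 and 35.0 CPM in Sham, 88.0 and 90.5 CPM in bIRI, and 48.0, 69.3 and 60.5 CPM in BHBNa_bIRI. It was 2.42-fold higher in bIRI than in Sham (log2 fold change 1.28, SE 0.18, edgeR adjusted p = 0.000844). Jam2, Cxadr and Cgn, the adaptor cingulin, rose by 1.87, 1.32 and 1.60, and Cgn by 0.73 without bIRI replicate 3. In BHBNa_bIRI against bIRI, 5 partners fell, among them Magi3 (-1.48), Mpdz (-1.45) and Cgnl1 (-1.43), and none rose. Over all genes 13.5% passed there, 8.65% as lower. By unadjusted edgeR p, 13 of 25 partners were under 0.05, beside 6191 of 17967 genes. The median log2 fold change of the partners was -0.45 beside -0.05 over all genes. With only the compared groups fitted, or with length and GC trends removed, 0 partners were called. With DESeq2 10 fell and 1 rose, and 2 fell and 1 rose without bIRI replicate 3. Ocln, the junction protein occludin, was at 33.6, 34.6 and 26.8 CPM in Sham, 30.2 and 36.6 CPM in bIRI, and 21.5, 20.5 and 16.9 CPM in BHBNa_bIRI, where it was 1.70-fold lower than in bIRI (edgeR adjusted p = 0.0356). The Ocln call was lost under 11 of 19 alternatives, and with length and GC trends removed its log2 fold change was -0.29 (edgeR adjusted p = 0.246). Against Sham, 6 partners rose and 6 fell in BHBNa_bIRI, where 43.6% of all genes passed.

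Among 13 genes of adherens junctions and desmosomes, 6 rose and 1 fell in bIRI against Sham, 5 rose and 2 fell in BHBNa_bIRI against Sham, and 1 rose and 2 fell between the injured groups. Over all genes 35.1%, 43.6% and 13.5% passed in these comparisons. Epcam, a membrane protein that binds and stabilises Cldn1 and Cldn7, was among the risers. Epcam rose by 1.16 and 1.02 against Sham (edgeR adjusted p = 0.00345 and 0.00305) and differed by -0.14 between the injured groups (0.682).

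Among 17 known regulators of claudins, 5 rose and 5 fell in bIRI against Sham, 4 rose and 7 fell in BHBNa_bIRI against Sham, and 5 fell between the injured groups (2 fell and 1 rose without bIRI replicate 3). Over all genes 35.1%, 43.6% and 13.5% passed in these comparisons, which also stand beside the counts of divalent cation genes below. Elf3, an epithelial transcription factor, was at 13.1, 14.6 and 16.1 CPM in Sham, 53.7 and 71.6 CPM in bIRI, and 92.5, 92.0 and 119 CPM in BHBNa_bIRI, and rose against Sham by 2.10 and 2.79 (edgeR adjusted p = 0.000133 and 1.66e-05). Hnf4a, a transcription factor of the proximal tubule, and Prss8, a membrane protease, fell by 1.80 and 1.78 in bIRI. Klhl3, the ubiquitin ligase adaptor that targets Cldn8, fell by 1.37 in bIRI and 2.18 in BHBNa_bIRI against Sham (edgeR adjusted p = 0.0261 and 0.00132), while Cldn8 itself was not called. The bIRI value of Klhl3 was -0.85 without bIRI replicate 1 and -2.41 without bIRI replicate 3, and its call was lost without Sham replicate 1 (edgeR adjusted p = 0.0819) and with only the compared groups fitted (0.0768). Of 21 genes of divalent cation transport, the process that Cldn16 and Cldn19 serve, 2 rose and 5 fell in bIRI and 1 rose and 14 fell in BHBNa_bIRI against Sham, and 9 fell between the injured groups (3 without bIRI replicate 3). Casr had a log2 fold change of -2.76 between the injured groups (edgeR adjusted p = 0.0427), which rested on bIRI replicate 3: the level in bIRI replicate 1, 3.22 CPM, was within the BHBNa_bIRI range, and without bIRI replicate 3 the value was -0.21 (adjusted p = 0.820).

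The genes whose pattern was most like that of each claudin were found by the root mean square difference of centred log2 CPM over the 8 libraries, a description in which all points share the same libraries. For Cldn4 these were Mall (0.19), S100a11 (0.24) and Anxa2 (0.25), and for Cldn7 Mcm3 (0.17), Serpinb9b (0.17) and Tubb5 (0.19). For Cldn2 they were Bpnt1, Selenoo and Malrd1 (each 0.14), and for Cldn10 Wfdc15b (0.24), Ppp1r1b (0.25) and Sirt3 (0.27). The nearest gene was Fbp2 (0.23) for Cldn1, Banf1 (0.21) for Cldn3, Tnk1 (0.15) for Cldn8, Fbln7 (0.21) for Cldn16 and Lynx1 (0.19) for Cldn19. No member was among the 3 nearest genes of another member. Neighbours on the chromosome were Cldn3 and Cldn4, 39.3 kb apart on chromosome 5, and Cldn1 and Cldn16, 91.3 kb apart on chromosome 16, with no other gene of the tables lying wholly between them. In bIRI against Sham Cldn4 rose where Cldn3 was not called, and in BHBNa_bIRI against Sham both rose. Cldn1 rose in the same comparison, where its neighbour Cldn16 had a log2 fold change of -0.84 and was not called.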

How the data were processed

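Per the labels, poly(A) RNA was sequenced in paired-end reads. Per the submitters' processing notes, HISAT2, featureCounts of Subread, DESeq2 and the build mm10 were used. Tool versions, annotation and strand setting: not given in the sources used here. Raw counts for 29678 genes were deposited, 1 table per library. The bIRI replicate 2 table was left out because each of its values was the average of the other bIRI tables, rounded down. The other 8 libraries had 33477985 to 45909063 counts.

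Symbols, exon lengths and positions came from GENCODE M21. filterByExpr of edgeR 4.0.16 (R 4.3.3) kept 17967 genes. TMM factors ran from 0.830 to 1.37. A robust quasi-likelihood fit with 1 mean per group and 5 residual degrees of freedom gave the 3 contrasts as two-sided tests, adjusted over all genes tested within each comparison by Benjamini and Hochberg, with 0.05 as the threshold. The fit was tested on simulated data. Levels are TMM-scaled CPM, divided by merged exon length where genes are compared. Marker-relative values used a pseudocount of 0.5 CPM, and likeness a prior count of 2. The 9 members and the gene lists were chosen with earlier results of these data known. Named genes were all members, other claudins at 1 CPM or more in a group, at most 4 called genes of each list per comparison, and a fixed set (Tjp1, Ocln, Epcam, Casr, Slc12a1, Umod, Aqp2, Lrp2, Upk1b, Upk3a). The bIRI value of Klhl3 was added after it was seen. Alternatives were DESeq2 1.42.0, other scaling factors and filters, the compared groups only, the replicate block, length and GC offsets, and leaving out each library. All 9 tables were also fitted, where the averaged table adds no spread of its own. Some genes of the lists are not reported here by name.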

Additional observations from a re-analysis of the deposited data

How the results depend on the processing

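The calls of Cldn2, Cldn4, Cldn7 and Cldn10 in bIRI against Sham held under every alternative run. With 1 library left out, 4 to 6 members were called there, 2 to 4 of them higher, the 4 without bIRI replicate 3. In BHBNa_bIRI against Sham the same count was 5 to 7. In BHBNa_bIRI against bIRI it was 4 with DESeq2 and with all 9 tables (3 higher, 1 lower each), 3 with no filter (2 higher, 1 lower), 2 with a filter of 1 CPM in 3 libraries (1 lower), and 0 with only the compared groups or with length and GC offsets. With 1 library left out it was 0 to 8, with 0 to 4 higher and 0 to 4 lower. It was 8 without bIRI replicate 1 and 0 without Sham replicate 1 or 2 or BHBNa_bIRI replicate 1 or 3. Over all genes this comparison gave from 0 to 8381 calls across the alternatives, beside 2431 in the fit of 8 libraries.

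Correlations of the deviations of same-numbered libraries from their group means ran from -0.206 to 0.093. The deviations of the bIRI libraries mirror each other and the groups are small. These values therefore cannot show whether the replicate numbers pair the libraries. With the replicate block, 4 members were called in bIRI against Sham (2 higher, 2 lower), 6 in BHBNa_bIRI against Sham, and 0 in BHBNa_bIRI against bIRI, where Cldn7 had a log2 fold change of 1.24 (edgeR adjusted p = 0.0711) and 0 of all genes passed. The block with length and GC offsets also gave 0 there, and Cldn7 at 0.49 (adjusted p = 0.162).

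Changes of sign were seen only in values not called in the fit of 8 libraries. In bIRI against Sham, leaving out 1 library gave log2 fold changes from -0.48 to 1.91 for Cldn1, -0.43 to 1.22 for Cldn3, -0.77 to 0.66 for Cldn8 and -0.71 to 1.69 for Cldn19. Cldn8 was -0.075 with length and GC offsets and -0.18 with these and the block. In BHBNa_bIRI against bIRI the ranges were -0.36 to 2.02 for Cldn1, -1.19 to 0.25 for Cldn8, -1.23 to 0.69 for Cldn10, -0.21 to 0.35 for Cldn16 and -2.06 to 0.36 for Cldn19. Cldn16 was -0.48 with length and GC offsets and -0.38 with these and the block. The lowest and highest of these came from leaving out a bIRI library, except for Cldn16, where BHBNa_bIRI replicates 1 and 3 gave negative values.

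Per length of the longest coding transcript, the means in CPM per kb were 174 for Cldn10, 16.1 for Cldn7 and 7.39 for Cldn1 in Sham, 47.9 for Cldn7 in bIRI, and 109 for Cldn7, 27.1 for Cldn10 and 21.8 for Cldn1 in BHBNa_bIRI. Relative to segment markers, with 1 library left out, Cldn3 ran from -1.03 to 1.10 and Cldn16 from -0.53 to 1.94 in bIRI against Sham, Cldn1 from -0.14 to 1.98 and Cldn8 from -0.70 to 0.20 in BHBNa_bIRI against bIRI, and Cldn2 from -0.21 to 0.072 in BHBNa_bIRI against Sham. With the mean of the markers in place of the median, Cldn3 was -0.11 and Cldn2 0.32 in those comparisons. The causes of these changes were not tested. The alternatives for genes that are not nephron claudins were added after seeing the data, and none of these genes' printed calls changed sign. The lowest count of a member in any library was 170 (Cldn16). The part of depth and of the number of libraries in the precision was not tested.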
